A study of Mus musculus with 11 samples.

Results

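The active zone is the patch of presynaptic membrane at which synaptic vesicles fuse, and its protein scaffold is encoded by a small set of mRNAs, some of them very long. Fragments of 10 of these mRNAs, all recovered by immunoprecipitation of FMRP, are described here across 3 brain regions: Bsn, Pclo, Rims1, Rims2, Unc13a, Unc13b, Unc13c, Erc1, Erc2 and Cadps. The members were chosen by gene symbol, and all 10 had a row in a deposited table of 30986 rows and passed the filter on low counts that left 1720 rows for testing. The tissue was cerebellum, cortex and hippocampus of mice at postnatal day 13, ground frozen and crosslinked by ultraviolet light before FMRP was pulled down; the labels name no genotype, strain, sex or treatment that would set the groups apart. FMRP is the RNA-binding protein lost in Fragile X syndrome, and the series title concerns the phosphodiesterase PDE2A in that disorder. There were 9 samples: 2 of cerebellum, 3 of cortex and 4 of hippocampus, one of which (hippocampus 1+2) is the sum of a pair of libraries that differed by no more than sampling noise. Cortex and hippocampus together are called forebrain below (n = 7). Nothing in the labels ties the libraries to individual mice; the p-values below therefore rest on library-to-library spread, which may be technical.

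Vesicles are tethered near calcium channels by RIM proteins (Rims1, Rims2), primed for fusion by Munc13 proteins (Unc13a, Unc13b, Unc13c), and held in a matrix built by the giant scaffolds bassoon (Bsn) and piccolo (Pclo) with the coiled-coil ELKS proteins (Erc1, Erc2). Cadps encodes CAPS1, a priming factor best known for dense-core vesicles. FMRP is associated with polyribosomes and represses the translation of many long neuronal mRNAs. Crosslinking studies in cultured human cells tied it to short motifs, which as DNA letters are AGGA and TGGA as well as ACTG and ACTT.

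Stretches of coding sequence are shown for the Unc13 family, which holds the called gene Unc13c, and for Erc1 and Erc2, whose levels did not overlap between cerebellum and forebrain but did not pass the test. For each gene the 60 bases of the longest coding sequence (GENCODE M21, GRCm38, sense strand) that hold the most matches to the 4 motifs are printed 5′ to 3′, with the motifs in capitals; matches that overlap each other were counted one by one.
Unc13a: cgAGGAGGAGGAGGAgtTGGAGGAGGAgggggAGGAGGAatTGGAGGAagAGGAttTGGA
Unc13b: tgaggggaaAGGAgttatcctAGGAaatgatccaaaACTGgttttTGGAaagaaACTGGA
Unc13c: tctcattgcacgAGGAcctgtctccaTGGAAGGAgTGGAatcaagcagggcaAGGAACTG
Erc1: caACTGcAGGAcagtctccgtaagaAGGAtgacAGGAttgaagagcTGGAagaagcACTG
Erc2: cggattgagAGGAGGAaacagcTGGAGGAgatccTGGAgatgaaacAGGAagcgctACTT
The Unc13a window held 13 matches, a number reached by 0.671% of 1640 tested genes with a coding transcript. The windows of Unc13b, Unc13c and Erc1 held 6 each (reached by 48.0% of those genes) and that of Erc2 held 7 (20.1%). Per kilobase of coding sequence, Erc1 had 36 matches and Erc2 32.6, more than 98.3% and 95.3% of the same genes, whereas Unc13c had 26.1 and Bsn 20.5, against a median of 24.5. Long coding sequences offer more windows, and a match is a description of letters, not a site of binding.

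Totals per sample ran from 11898 counts (cortex 3) to 197382 (cerebellum 2). CPM are counts per 1000000 counts of the sample. A count of 0 allows up to 3 counts, or 252 CPM in the shallowest sample and 15.2 CPM in the deepest; intervals below are exact Clopper-Pearson intervals at 95% and, like this limit, cover counting error only. Without an input library among those analysed here, RNA abundance and FMRP binding cannot be told apart, nor, in whole tissue, can fewer cells of a type and less RNA per cell. Markers followed the labels: 13 granule cell markers summed to 6414 to 7899 CPM in cerebellum and 260 to 929 CPM in forebrain, and 13 markers of forebrain excitatory neurons to 639 to 836 CPM in cerebellum and 1597 to 3621 CPM in forebrain. Astrocyte markers (10 genes) summed to 1634 to 1636 CPM in cerebellum and 925 to 5852 CPM in forebrain; 1 of the 5 tested, the glutamate transporter Slc1a2, was lower in cerebellum (log2 difference -2.41, adjusted p = 0.00511, edgeR; SE 0.64). Oligodendrocyte markers (10 genes) summed to 890 to 1287 CPM in cerebellum, 168 to 896 CPM in cortex and 560 to 975 CPM in hippocampus, with 0 of 2 tested called and 1 at an unadjusted p under 0.05 in edgeR. The part of these cell types in the results below was not tested. Microglial markers (94.3 to 117 CPM in cerebellum, 32.6 to 179 CPM in forebrain) and endothelial markers (178 to 198 CPM, against 65.1 to 290 CPM) were low throughout. Of the granule cell markers, 0 of 13 were at 0 in cerebellum as a whole, 0 of 13 in hippocampus as a whole, and 5 (Gabra6, Zic2, Pax6, Cbln3 and Calb2) were at 0 in all 3 cortex samples. Each cortex sample held fewer counts than either cerebellum sample. The forebrain samples cortex 3, hippocampus 3 and hippocampus 4 stood apart: 15.5 to 16.1% of their counts fell on predicted gene names, against 4.97 to 10.2% in the other forebrain samples; both cerebellum samples had 10.1% or less. Fold changes of the 10 members between cerebellum and forebrain are also given without these 3 samples. In those fits cerebellum 2 is the only sample left with its numeric title code. Where the code is used as a block, it absorbs that sample, and cerebellum 1 alone carries the cerebellum side.

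Together the 10 mRNAs took 6716 ± 177 CPM in cerebellum (SD, n = 2) and 5672 ± 2610 CPM in forebrain (n = 7), which did not differ beyond the spread (exact permutation test over 36 splits, two-sided, p = 0.611). In cortex they took 6924 ± 2946 CPM (n = 3) and in hippocampus 4733 ± 2258 CPM (n = 4; exact permutation test over 35 splits, p = 0.314). Cortex 3, hippocampus 3 and hippocampus 4 had the lowest sums, 2267 to 3698 CPM, while the other forebrain samples had 6502 to 9472 CPM. These are the samples with most counts on predicted gene names, and the part of that background in the sums was not tested. Without the 3 samples the log2 ratio of cerebellum to forebrain changed sign, to -0.18, against 0.24 with them.

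The matrix scaffolds Bsn and Pclo supplied most of these fragments, 2393 of 4078 member counts (58.7%), and between 55.4 and 65.6% in every sample. Bsn stood at 1655 and 1864 CPM in cerebellum, at 2832, 2581 and 1261 CPM in cortex, and at 2440, 665, 775 and 2044 CPM in hippocampus (samples 1+2, 3, 4 and 5). It ranked between 10 and 35 among all rows of each sample. Pclo stood at 2273 and 1824 CPM in cerebellum, at 3385, 1846 and 1009 CPM in cortex, and at 1834, 605, 1094 and 1579 CPM in hippocampus. The cerebellum values lay inside the forebrain range for both genes. Between regions each row was tested with edgeR's quasi-likelihood test, with Benjamini-Hochberg adjustment over the 1720 rows and the numeric code in the sample titles as a block. Neither gene passed between cerebellum and forebrain, with log2 fold changes of 0.023 for Bsn (SE 0.59, adjusted p = 0.996, edgeR) and 0.38 for Pclo (SE 0.56, adjusted p = 0.848, edgeR). Without cortex 3, hippocampus 3 and hippocampus 4, where cerebellum 1 alone carries the cerebellum side, these values were -0.52 and 0.042. With no block as well they were -0.28 and 0.17.

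**Figure D1:**
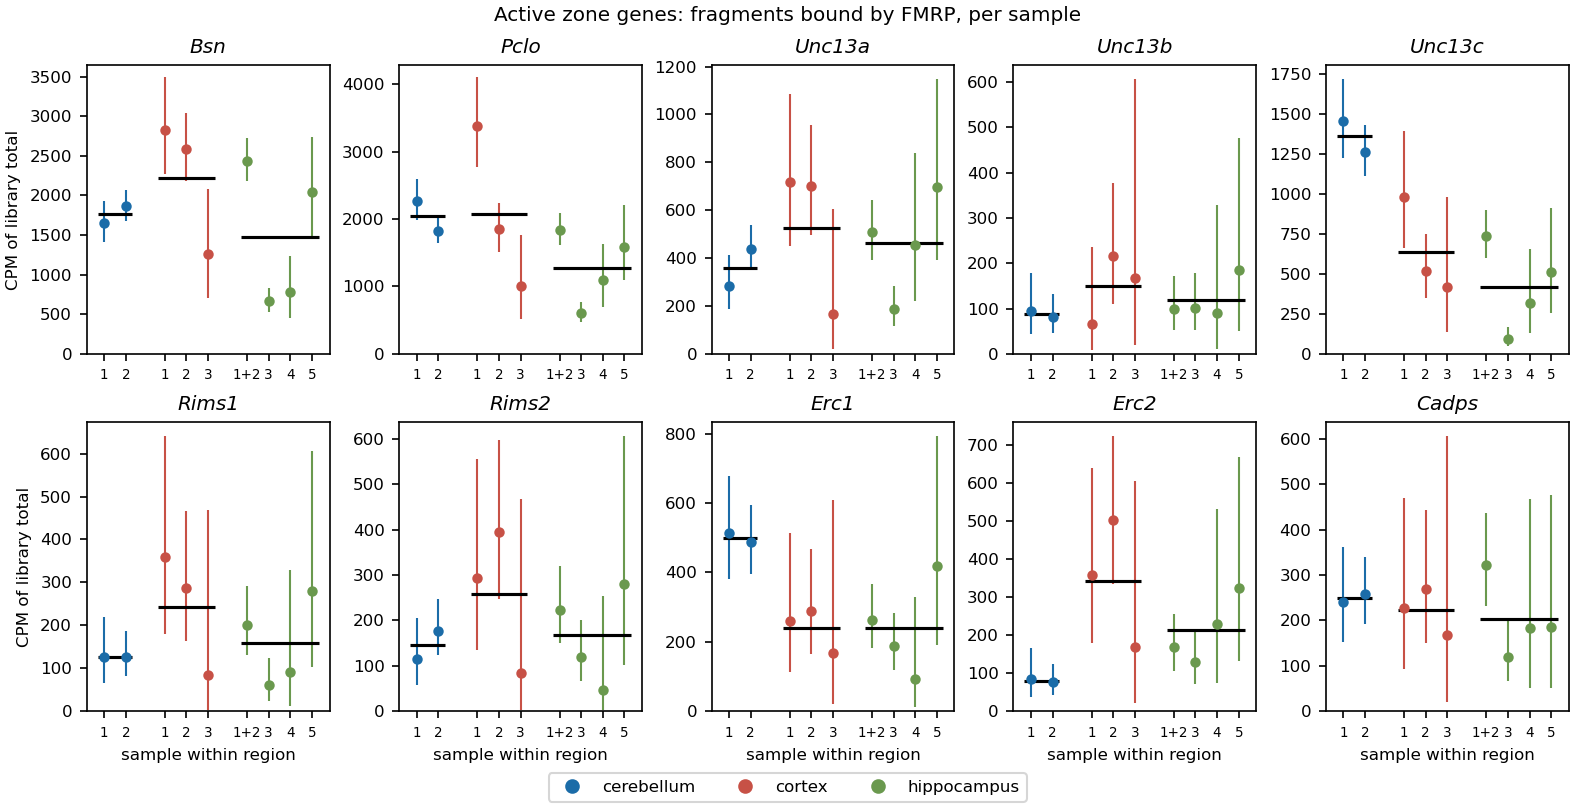
Level of each active zone gene in CPM of the library total (y axis, from 0) in the 9 samples (x axis, by region and sample number). Points are samples, vertical lines exact 95% counting intervals and horizontal bars region means; Unc13c and Erc1 lie higher and Erc2 lower in both cerebellum samples than in any forebrain sample.

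Unc13c, which encodes Munc13-3, a priming factor known from cerebellar granule cells, was the only member to pass the test between cerebellum and forebrain. It spans chromosome 9 from 73479422 to 73968966 on the minus strand of GRCm38. Its level was 1456 CPM (95% interval 1224 to 1719) and 1262 CPM (1110 to 1428) in cerebellum. In cortex it was 977, 520 and 420 CPM, and in hippocampus 737, 93.8, 319 and 511 CPM. Both cerebellum samples were above every forebrain sample, of which cortex 1 came nearest and hippocampus 3 was lowest. On the log2 scale Unc13c exceeded its forebrain level by 1.72 in cerebellum (adjusted p = 0.014, edgeR; SE 0.51), against a background of 7.67% of all rows called in either direction and 3.9% called higher. It exceeded its hippocampus level by 1.87 (adjusted p = 0.00875, edgeR; SE 0.52), or by 1.68 without the title code as a block, which did not pass (adjusted p = 0.0519, edgeR). Against cortex alone the value was 1.58 and did not pass (SE 0.62, adjusted p = 0.138, edgeR). The edgeR p-values, and so the call of Unc13c, rest mainly on a spread shared over rows, not on that of Unc13c alone.

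The size of the Unc13c difference depended on single samples. With the title code as a block, cerebellum meets forebrain only within codes: cerebellum 1 with cortex 1 and hippocampus 1+2, and cerebellum 2 with hippocampus 3. Leaving out cerebellum 2 or hippocampus 3 thus removes the same comparison. Hippocampus 3 is among the samples with most counts on predicted gene names. Without cortex 3, hippocampus 3 and hippocampus 4, the cerebellum excess of Unc13c was 0.95 (SE 0.29), or 1.18 with no block as well (SE 0.32). The fit with the block has 1 residual degree of freedom, and cerebellum 1 alone carries its cerebellum side. Leaving out single samples gave 0.99 to 3.26 and ended the call in 7 of 9 cases. The value was 2 without cortex 1 (adjusted p = 0.446), 1.76 without cortex 2 (0.0706), 1.8 without hippocampus 4 (0.0767) and 1.78 without hippocampus 5 (0.133), all edgeR. It was 3.26 without cerebellum 1 and 0.99 without cerebellum 2 or hippocampus 3, fits in which 1 cerebellum sample carries the comparison. The call was also lost with library totals in place of TMM factors (1.9, adjusted p = 0.24), with no filter on low counts (2.2, 1), with a minimum of 50 counts over the samples (1.75, 0.0952) and in the libraries of s titles (1.86, 0.369), all edgeR. Against hippocampus, single samples left out gave 1.01 to 3.28 and ended the call in 5 of 9 cases. Among these were cortex 1 (2.07, adjusted p = 0.192, edgeR) and hippocampus 5 (1.98, adjusted p = 0.0915, edgeR). The others were cerebellum 1 (3.28), cerebellum 2 (1.03) and hippocampus 3 (1.01), where 1 cerebellum sample is left to carry the comparison. Without cortex 3, hippocampus 3 and hippocampus 4, where cerebellum 1 alone carries it, the value was 1.0. Among samples with the same code in their titles as cerebellum 1 (cortex 1 and hippocampus 1+2), Unc13c had 1456 CPM in cerebellum against a mean of 857 CPM in forebrain, a log2 ratio of 0.77, or 0.96 with the TMM factors used in the fits. In the code of cerebellum 2, it had 1262 CPM in cerebellum against 93.8 CPM in hippocampus 3, a log2 ratio of 3.75, or 3.14 with TMM factors. The summed markers of granule cells (above) and of Purkinje cells (10 genes, 2986 to 3481 CPM in cerebellum and 511 to 1432 CPM in forebrain) were higher in the same samples as Unc13c. Most of the Purkinje sum in cerebellum was 1 gene, Itpr1 (2708 ± 111 CPM, SD, n = 2, against 574 ± 289 CPM in forebrain, n = 7). Of the 10 Purkinje markers only 2 were tested, and Itpr1 was the 1 called. The part of these cell types in the Unc13c difference was not tested.

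The other Munc13 genes did not pass the test. Unc13a, the main priming factor of forebrain glutamatergic synapses, had 283 and 436 CPM in cerebellum, 716, 699 and 168 CPM in cortex, and 507, 188, 456 and 697 CPM in hippocampus. Its groups overlapped, and its log2 fold change between cerebellum and forebrain was -0.23 (SE 0.5, adjusted p = 0.921, edgeR), or -0.91 without cortex 3, hippocampus 3 and hippocampus 4 (-0.59 with no block as well). Unc13a is the only member that overlaps another coding gene, Colgalt1, by 495 bases. Unc13b, a priming factor of a subset of synapses and the member with fewest counts (72 over the 9 samples), had 81.1 to 94.3 CPM in cerebellum and 65.1 to 215 CPM in forebrain (log2 fold change -0.31, SE 0.75, adjusted p = 0.933, edgeR). Without the same 3 samples the value was 0.17 with the block, where cerebellum 1 alone carries the cerebellum side, and -0.46 with no block.

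In shares within a family the library total cancels. Of all Unc13 counts, Unc13c took 79.4% (139 of 175 counts, 95% interval 72.7 to 85.2%) and 70.9% (249 of 351, 65.9 to 75.6%) in cerebellum. In cortex it took 55.6, 36.2 and 55.6%, and in hippocampus 54.9, 24.4, 36.8 and 36.7%. The mean share was 75.2 ± 6% in cerebellum (SD, n = 2) and 42.9 ± 12.4% in forebrain (n = 7), with no overlap between the groups. The difference of 32.3 percentage points had an exact permutation p of 0.0278, the smallest that 36 splits allow, and 0.139 when adjusted over the 10 tests of family shares. These permutations, unlike the edgeR fits, did not keep samples within their title codes. The difference lay between 28.1 and 36.5 points with any single sample left out and was 29.4 points without cortex 3, hippocampus 3 and hippocampus 4.

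Erc1 and Erc2, which encode the scaffolds ELKS1 and CAST/ELKS2 that bind RIM and bassoon, stood on opposite sides of forebrain in cerebellum. Erc1 (chromosome 6, 119570796 to 119848167, minus strand) had 513 and 486 CPM in cerebellum, 260, 287 and 168 CPM in cortex, and 261, 188, 91.1 and 418 CPM in hippocampus. Erc2 (chromosome 14, 27622428 to 28478537, plus strand) had 83.8 and 76.0 CPM in cerebellum, 358, 502 and 168 CPM in cortex, and 169, 128, 228 and 325 CPM in hippocampus. For Erc1 both cerebellum samples were above, and for Erc2 both were below, every forebrain sample. The 95% counting intervals of some forebrain samples still covered the cerebellum levels. Examples are Erc1 in hippocampus 5 (9 counts, 191 to 793 CPM), Erc2 in hippocampus 3 (15 counts, 71.6 to 211 CPM) and both genes in cortex 3 (2 counts each, 20.4 to 607 CPM). Neither passed over all genes: the log2 fold change between cerebellum and forebrain was 1.03 for Erc1 (SE 0.5, unadjusted p = 0.039, adjusted p = 0.241, edgeR) and -1.46 for Erc2 (SE 0.6, unadjusted p = 0.0151, adjusted p = 0.134, edgeR). Without the title code as a block, Erc2 passed (-1.67, SE 0.5, adjusted p = 0.0283, edgeR) and Erc1 did not (1.1, adjusted p = 0.107, edgeR). Without cortex 3, hippocampus 3 and hippocampus 4 the values were 1.16 for Erc1 and -1.37 for Erc2, with cerebellum 1 alone carrying the cerebellum side. With no block as well they were 0.97 and -1.72.

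**Figure D2:**
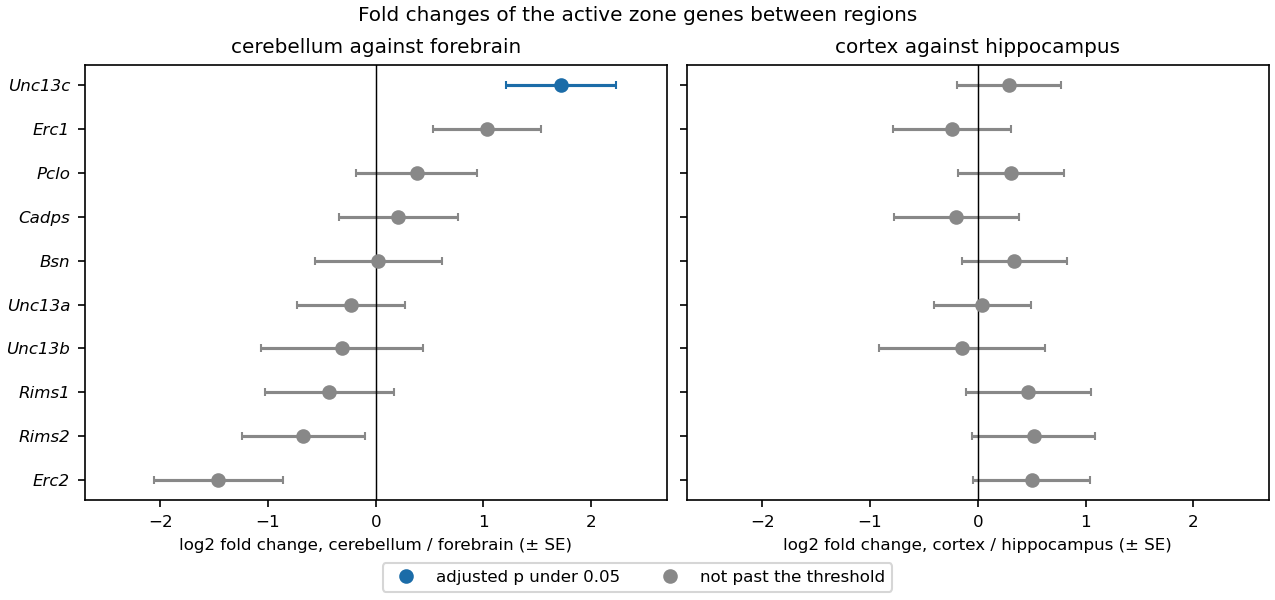
Log2 fold change (x axis, ± approximate SE) of the 10 genes (rows) for cerebellum over forebrain and for cortex over hippocampus, from edgeR on 9 samples. Only Unc13c, at 1.72 between cerebellum and forebrain, passed the adjusted threshold; no gene did between cortex and hippocampus.

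The balance of the pair was also set beside the levels. Erc1 took 86.0% of Erc1 and Erc2 counts (49 of 57, 95% interval 74.2 to 93.7%) and 86.5% (96 of 111, 78.7 to 92.2%) in cerebellum. In cortex it took 42.1, 36.4 and 50%, and in hippocampus 60.7, 59.5, 28.6 and 56.2%. No forebrain share reached the cerebellum values, although those of cortex 3 and hippocampus 4 rest on 4 and 7 counts. The mean was 86.2 ± 0.369% in cerebellum (SD, n = 2) and 47.6 ± 12.3% in forebrain (n = 7), a difference of 38.6 points (exact permutation p = 0.0278, the smallest possible with 36 splits; 0.139 adjusted over 10 tests). The difference lay between 35.4 and 40.8 points with any single sample left out and was 37.4 points without cortex 3, hippocampus 3 and hippocampus 4. Cortex and hippocampus differed by -8.43 points (exact permutation p = 0.429), or by -19.2 points without the same 3 samples (exact permutation p = 0.333).

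Cadps, the CAPS1 gene, overlapped between the regions, with 241 and 258 CPM in cerebellum, 228, 269 and 168 CPM in cortex, and 322, 119, 182 and 186 CPM in hippocampus (log2 fold change 0.21 between cerebellum and forebrain, SE 0.55, adjusted p = 0.934, edgeR). Without cortex 3, hippocampus 3 and hippocampus 4 the value was -0.13, or 0.1 with no block as well. Its paralog Cadps2, which is not one of the 10, stands on the list of granule cell markers and is known for its part in neurotrophin release from granule cells, rose in cerebellum (log2 difference 2.5, adjusted p = 0.000479, edgeR; SE 0.56), with 519 ± 96 CPM in cerebellum (SD, n = 2) and 149 ± 90.6 CPM in forebrain (n = 7). Cadps2 thus took 70.9 and 63.6% of the counts of the pair in cerebellum and 22.2 to 63.6% in forebrain. The highest forebrain share, of hippocampus 5, rests on 7 of 11 counts (exact permutation p = 0.0556; 0.185 adjusted over 10 tests). Without cortex 3, hippocampus 3 and hippocampus 4 the exact permutation p was 0.2.

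**Figure D3:**
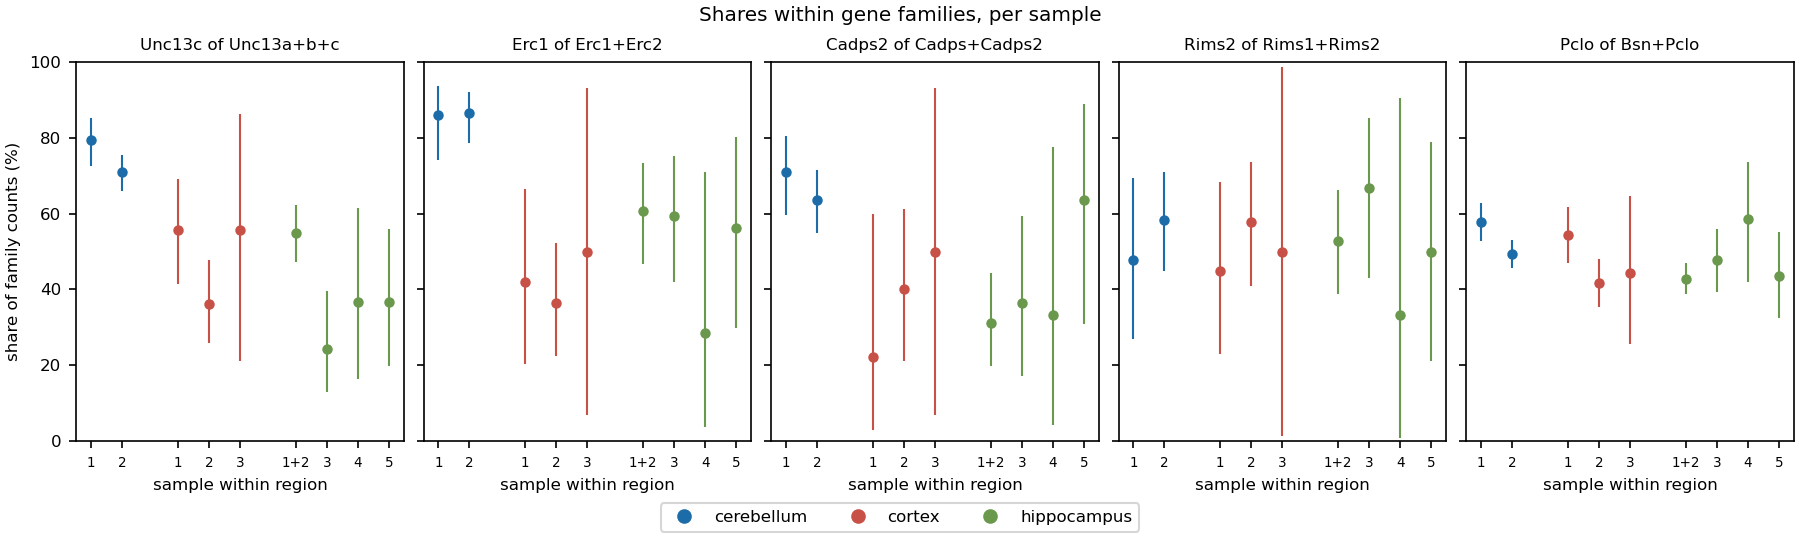
Share of 1 gene in the counts of its family (y axis, %, 0 to 100) in the 9 samples (x axis, by region and sample number), with exact 95% binomial intervals. The Unc13c share is 70.9% or more and the Erc1 share 86.0% or more in cerebellum, above all forebrain samples, whereas the shares of Rims2 and Pclo overlap between the regions.

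The RIM genes, which link vesicles, Munc13 and calcium channels, did not pass either. Rims1 had 126 and 127 CPM in cerebellum and a range of 59.7 to 358 CPM, median 200 CPM, in forebrain (log2 fold change -0.43, SE 0.6, adjusted p = 0.832, edgeR). Rims2 had 115 and 177 CPM in cerebellum and 45.6 to 394 CPM, median 223 CPM, in forebrain (-0.67, SE 0.57, adjusted p = 0.661, edgeR). Without cortex 3, hippocampus 3 and hippocampus 4 the values were -0.89 for Rims1 and -1.01 for Rims2, or -0.86 and -0.73 with no block as well. The share of Rims2 in the pair was 53.1 ± 7.43% in cerebellum (SD, n = 2) and 50.8 ± 10.4% in forebrain (n = 7; exact permutation p = 0.778). The share of Pclo in Bsn and Pclo was likewise 53.7 ± 5.95% in cerebellum and 47.6 ± 6.45% in forebrain (exact permutation p = 0.306).

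In all, 1 of the 10 members was called between cerebellum and forebrain, against 7.67% of all 1720 rows tested: 1 of 10 higher (3.9% of all rows) and 0 of 10 lower (3.78%). An unadjusted p under 0.05 was found for 3 of 10 (18.0% of all rows). CPM did not overlap between cerebellum and forebrain for 2 of 10 members on the higher side (9.3% of all rows) and 1 of 10 on the lower side (4.3%). Against hippocampus alone 1 of 10 was called (6.4% of all rows; 3.08% higher and 3.31% lower), with 2 of 10 at an unadjusted p under 0.05 (16.9%). Against cortex alone 0 of 10 were called in edgeR (4.59% of all rows; 2.21% higher and 2.38% lower), and by DESeq2 likewise 0; an unadjusted p under 0.05 was found for 2 of 10 in edgeR (14.4%). These comparisons share their cerebellum samples. The median log2 fold change of the members between cerebellum and forebrain was -0.1, against 0.0023 for all rows.

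Between cortex and hippocampus 0 of the 10 members and 0.0% of all rows were called in edgeR, with 0 members at an unadjusted p under 0.05, against 3.95% of all rows; DESeq2 called 0 members and 1 row in all. The log2 fold changes of the members ran from -0.24 (Erc1, SE 0.55) to 0.52 (Rims2, SE 0.57), and the CPM of the 2 regions overlapped for every member. The SEs of these values were 0.45 to 0.77, so differences of this size were not detectable against the spread between samples.

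Levels can be set beside each other between genes only per length, here as CPM per kilobase of the transcript with the longest coding sequence. On that scale the order in cerebellum was Unc13c (154 ± 15.7 CPM per kilobase, SD, n = 2), Bsn (110 ± 9.28), Pclo (102 ± 15.8), Unc13a (63.5 ± 19.1), Erc1 (57.1 ± 2.18), Cadps (46.1 ± 2.27), Rims2 (31 ± 9.3), Rims1 (19.6 ± 0.103), Erc2 (13.1 ± 0.908) and Unc13b (5.94 ± 0.634). Bsn and Pclo, and Unc13a and Erc1, were neighbours closer than their spread. In forebrain the order began with Bsn (113 ± 56 CPM per kilobase, SD, n = 7), Unc13a (86.7 ± 41.7), Pclo (80.7 ± 45) and Unc13c (58.1 ± 32.4), all within their spread of each other, and ended with Rims1 (30.1 ± 18.3), Erc1 (27.3 ± 11.9) and Unc13b (8.98 ± 3.83). Unc13c thus stood first in cerebellum and below Bsn, Unc13a and Pclo in forebrain, and Erc2, at 44.1 ± 22 in forebrain, stood above Erc1 there and below it in cerebellum. The order depends on the length used. Per kilobase of coding sequence Erc1 stood at 149 CPM in cerebellum, level with Bsn (149) and above Pclo (135), below Unc13c (205), and in forebrain Erc2 (89.2) stood above Unc13c (77.1). In forebrain Rims2 stood above Rims1 per kilobase of transcript (43.5 against 30.1 CPM) and below it per kilobase of coding sequence (43.5 against 45.4 CPM). The annotated Rims2 transcript used has 4719 bases, of which 4716 are coding. The per-length level of Unc13b rests on an annotated transcript of 14754 bases, and which transcripts the tissue used was not measured.

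Across the 9 samples, the rows whose log2(CPM + 50) followed Unc13c most closely were Ncor1 (Pearson r = 0.931), Cacna1a (0.929), Ptprs (0.916), Fasn (0.914) and Igsf9b (0.907). For Bsn, the member with the highest mean, they were Nisch (0.974), Wdfy3 (0.968), Arhgef12 (0.967), Ubr4 (0.962) and Scn8a (0.95). These points share library depth and background. Between members the 45 correlations had a median of 0.557 and ran from -0.27 to 0.888. They share depth and background likewise. No median over pairs of other rows was computed, so whether this level is particular to the members was not tested.

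Calls in other presynaptic lists between cerebellum and forebrain are set beside 7.67% of all rows called and 18.0% at an unadjusted p under 0.05. They are given for the reported fit only, without the other settings and left-out samples shown for Unc13c. Of 20 further release-site scaffolds with a row, 9 were tested and 2 of these called; Cadps2 was higher and Rimbp2, a RIM-binding protein that couples RIM to calcium channels, was lower (log2 difference -2.97, adjusted p = 0.016, edgeR; SE 0.9), with 15.2 ± 21.5 CPM in cerebellum (SD, n = 2) and 174 ± 70.6 CPM in forebrain (n = 7). That cerebellum level is near the limit that a count of 0 allows there (31.4 CPM in cerebellum 1 and 15.2 CPM in cerebellum 2). Of 5 tested presynaptic calcium channel subunits 1 was called: Cacna1e, the R-type pore subunit, was higher in cerebellum (2740 ± 644 CPM, n = 2, against 764 ± 358 CPM in forebrain, n = 7; log2 difference 1.7, adjusted p = 0.0173, edgeR; SE 0.52). Cacna1a, the P/Q-type pore subunit, was higher in cerebellum than in hippocampus alone (1606 ± 78.7 CPM, n = 2, against 462 ± 156 CPM, n = 4; 1.52, SE 0.5, adjusted p = 0.0411, edgeR). Of 25 tested genes of synaptic vesicles and SNARE complexes 0 were called, with 7 at an unadjusted p under 0.05 in edgeR, and of 15 tested endocytosis genes 0 were called, with 1 at an unadjusted p under 0.05. The median log2 fold changes of these lists were 0.19 (release-site scaffolds), 0.88 (calcium channel subunits), -0.45 (vesicle and SNARE genes) and -0.2 (endocytosis genes), beside 0.0023 for all rows.

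**Figure D4:**
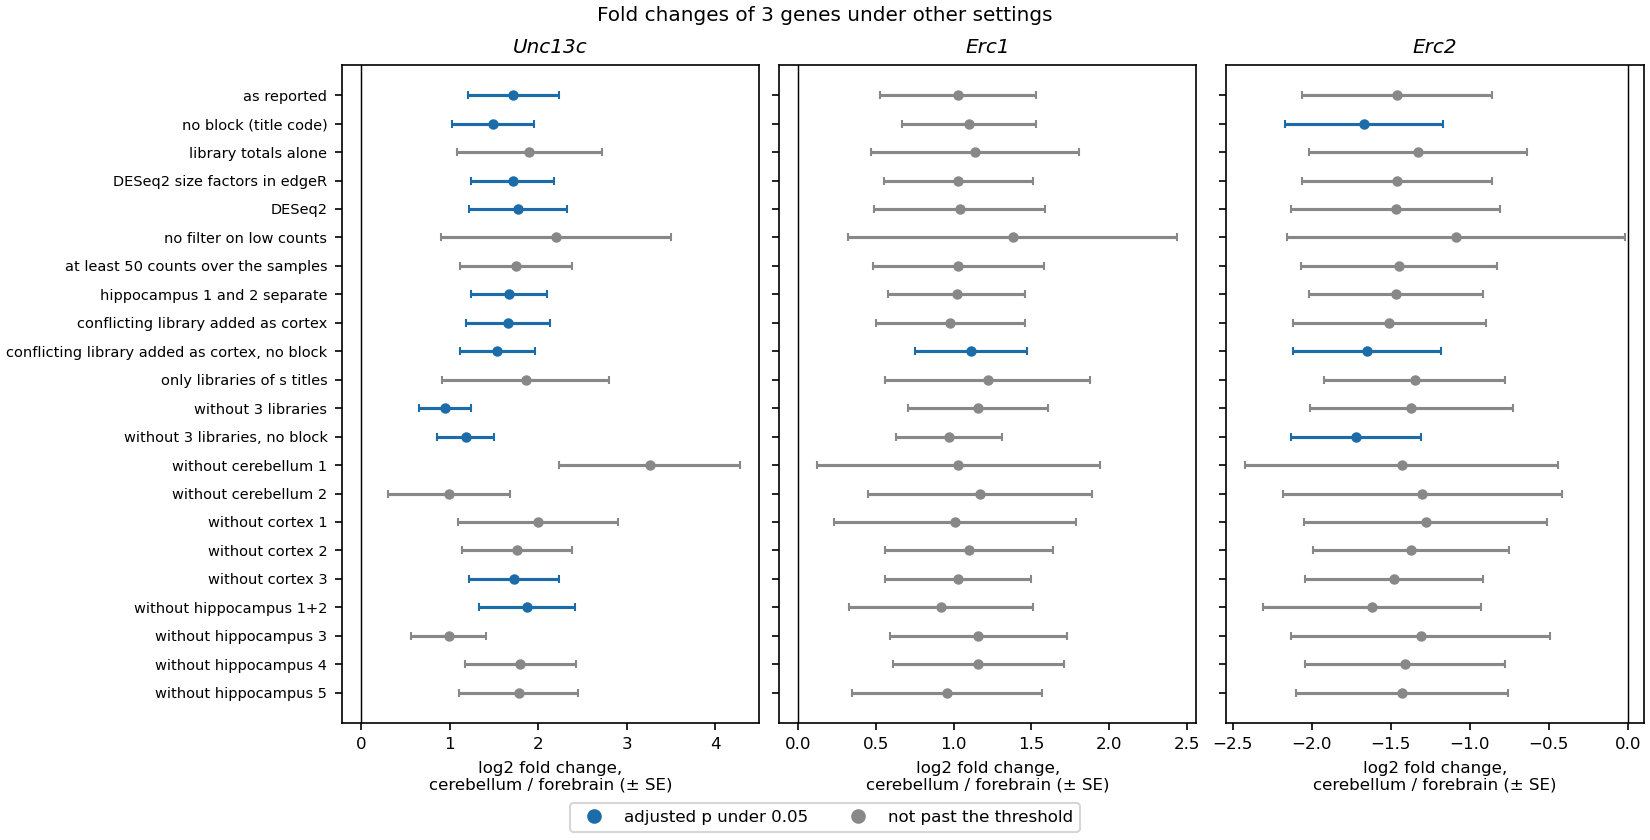
Log2 fold change of Unc13c, Erc1 and Erc2 for cerebellum over forebrain (x axis, ± SE) as reported and under 21 other settings or sample sets (rows; "without 3 libraries" leaves out cortex 3, hippocampus 3 and hippocampus 4). Unc13c and Erc1 stay above 0 and Erc2 below 0 in every row, while Unc13c passes the threshold in 10 of the 21 alternatives, Erc1 in 1 and Erc2 in 3. With the block, cerebellum 1 alone carries the cerebellum side of "without 3 libraries". The conflicting library, alone in its title code, then has a coefficient of its own, so that row does not test its placing.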

How the data were processed

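The authors deposited 1 table of raw counts, with gene symbols as rows and 11 libraries as columns. Bowtie 0.12.7, Picard and mm10 are named in the submitters' processing notes. How fragments were assigned to genes, and whether strand was used, is not stated in the labels or the file header, so fragments of overlapping or antisense genes cannot be told apart. Per the labels, tissue received 3 doses of 400 mJ at 254 nm. One library has a title naming cortex and a tissue label naming hippocampus. It entered alternatives only, as cortex, as its title says. No other library shares its title code, so fits with the block give it a coefficient of its own. Those fits cannot test its placing, and only the fit with no block lets it bear on the regions. The series' design text counts 4 libraries of cortex and 5 of hippocampus, the numbers that this placing gives. The libraries hippocampus 1 and 2 were summed, since a chi-square test over 1873 rows found no difference (p = 0.192, a chi-square of 1.03 for each degree of freedom, against at least 1.49 in other pairs of a region).

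Counts were tested in R 4.3.3 with the quasi-likelihood test of edgeR 4.0.16 (TMM, filterByExpr, Benjamini-Hochberg adjusted p under 0.05 over 1720 rows), with all 9 samples in one fit, the numeric title code as a block and 4 residual degrees of freedom. Forebrain is the mean of the cortex and hippocampus coefficients. The SE is the absolute log2 fold change over the square root of F and is approximate. edgeR shares its estimate of spread over rows. The p-values of the members are near those of a normal distribution for the ratio of fold change to SE. They thus rest mainly on that shared spread, and a test on the 4 degrees of freedom of each row alone would give larger p-values. Samples of one title code correlated in their deviations from region means with a median r of 0.137 (8 pairs, -0.0796 to 0.502), against -0.0507 over 18 pairs of different codes. The deviations of the 2 cerebellum samples mirror each other: cortex 1 had r = 0.157 with cerebellum 1 and -0.157 with cerebellum 2. The pairs are thus not independent. What the codes stand for is not stated, so the pairing is at most a hint from the data. Family shares were tested by two-sided exact permutation. Alternatives were DESeq2 1.42.0, other scalings, filters and sample sets. The fitting code was tested on simulated data. Members, lists and sample sets were chosen with earlier results of these data known. All members are named; genes of other presynaptic lists are named where called, and correlates are the 5 highest for the member with the largest called change and for the member with the highest mean.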

Additional observations from a re-analysis of the deposited data

Results flagged for a closer look

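In the 4 hippocampus samples, 16 levels and shares were checked for a value far from the others, of which chance alone would mark about 1 in 20. Unc13b in hippocampus 5, at 186 CPM (4 counts), lay far above the other hippocampus samples, at 91.1 to 102 CPM. The Erc1 share of Erc1 and Erc2 in hippocampus 4, 28.6% (2 of 7 counts), lay far below the others, at 56.2 to 60.7%. The Cadps2 share of Cadps and Cadps2 in hippocampus 5, 63.6% (7 of 11 counts), lay far above the others, at 31.1 to 36.4%. Each of these rests on 11 counts or fewer.

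The library whose title and tissue label name different regions, left out of the reported fits and used in alternatives only, held 9 members above the limit that a count of 0 allows (98.9 CPM at its total of 30344 counts). Bsn had 1846 CPM, Pclo 1120 CPM, Unc13a 461 CPM, Unc13c 297 CPM and Cadps 297 CPM in it. Erc2 had 198 CPM, Rims2 165 CPM, Unc13b 165 CPM and Erc1 132 CPM.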

How the results depend on the processing

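The number of members called between cerebellum and forebrain (1 as reported) was 2 without the title-code block (Unc13c and Erc2), 3 with the conflicting library as cortex and no block, and 2 without cortex 3, hippocampus 3 and hippocampus 4 and no block, both chosen after seeing the data. It was 0 with library totals alone, with no filter on low counts, with at least 50 counts over the samples and with only libraries of s titles; single samples left out gave 0 to 1. Against cortex (0 as reported) it was 1 with no block, 2 with the conflicting library and no block, and 1 without the 3 samples and no block. Against hippocampus (1 as reported) it was 0 in each of no block, library totals, no filter, at least 50 counts, s titles and the 3 samples out with no block, and 0 to 1 with single samples out. The cause was not tested. The pairing by title code thus changed the calls of Unc13c against hippocampus (adjusted p = 0.0519 without the block, edgeR) and of Erc2.

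Over all rows, the count of 132 between cerebellum and forebrain was 54 with library totals, 87 in DESeq2, 85 with s titles, 1 without a filter, 215 without the 3 samples (253 with no block) and 2 to 176 with single samples out. Against cortex (79 as reported) it ran from 0 to 201 over all settings, and against hippocampus (110 as reported) from 0 to 191. Without a filter 30818 rows were tested.

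Values that changed sign were of members that passed in neither setting. With the block, the conflicting library has its own coefficient and moved values only through the filter, the scaling and the shared spread. Without the 3 samples, values from fits with the block rest on cerebellum 1 alone on the cerebellum side. Between cerebellum and forebrain, Bsn was -0.022 with hippocampus 1 and 2 separate, -0.028 with the conflicting library, -0.52 without the 3 samples (-0.28 with no block) and -0.48 to 0.94 with single samples out. Unc13a was 0.14 without a filter, Unc13b 0.059 without a filter, 0.2 with s titles and 0.17 without the 3 samples (-0.46 with no block), and Cadps -0.13 without the 3 samples (0.1 with no block). Single samples out gave -0.059 to 0.79 for Cadps, -0.85 to 0.46 for Rims1 and -0.86 to 0.84 for Unc13a. Between cortex and hippocampus, Unc13a was -0.013 with the conflicting library, Unc13b 0.016 with no block, 0.13 with library totals or no filter and 0.22 without the 3 samples and no block, where Unc13c was -0.026. Library totals gave 0.026 for Erc1 and 0.12 for Cadps, and no filter gave 0.1 for Cadps. Single samples out gave -0.48 to 0.28 (Cadps, 0.056 without hippocampus 1+2), -0.42 to 0.17 (Erc1), -0.27 to 0.36 (Unc13a) and -0.52 to 0.48 (Unc13b). The range of Unc13b covers 5 of the 9 fits with a single sample out. It was tested in only 14 of the 21 alternatives.

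The Rims2 share difference was -1.79 points with the conflicting library and -1.72 with s titles between cerebellum and forebrain (single samples out -2.98 to 7.53), and -14.7 with s titles between cortex and hippocampus (-5.5 to 5.61). The Pclo share difference between cortex and hippocampus was 0.0577 with hippocampus 1 and 2 separate, 9.17 with s titles and 4.83 without the 3 samples (-5.1 to 2.15), and that of Cadps2 -10 to 3.88 with single samples out. The summed level of the members was -0.18 without the 3 samples. Depth limits the members of few counts most: in cortex 3, 7 of the 10 rest on 1 or 2 counts.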

Other observations

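In the library with conflicting labels the 10 members summed to 4713 CPM, and 13% of its counts fell on predicted gene names. Rims1, the remaining member, had 1 count in it. Unc13c took 32.1% of its Unc13 counts (9 of 28, 95% interval 15.9 to 52.4%) and Erc1 took 40% of its Erc1 and Erc2 counts (4 of 10, 12.2 to 73.8%). Bsn and Pclo together took 62.9% of its member counts.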
